A study of Mus musculus with 3 samples.

Results

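In droplet single-cell libraries each barcode stands for 1 droplet, and its unique molecular identifiers (UMIs) count the RNA molecules captured there. The barcodes described here, called high-share barcodes, are those in which 10% or more of the UMIs lay on the 13 protein-coding genes of the mitochondrial genome, whose symbols start with mt-. They numbered 10385 of 28265 barcodes from mouse bone marrow, and each library's high-share barcodes were set against its own low-share barcodes, those under 10%, of which there were 17880 in all. The mitochondrial genes were then dropped and the remaining UMIs rescaled to the same total in each group of barcodes, as CPM of non-mitochondrial UMIs. The barcodes were chosen by their measured mitochondrial share, so every difference between the high-share and low-share barcodes is given as a description, with no test.

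The series held 3 libraries, 1 for each genotype of Fabp4, which encodes a fatty-acid-binding protein: homozygous knockout, heterozygous knockout and wild type. Each library was a pool of marrow cells of 2 mice, and no file assigns a barcode to a mouse. The labels state no strain, age, sex, treatment, sorting step or method of gene deletion, and although the title of the study is about leukaemia stem cells they do not say whether the marrow was leukaemic. With 1 library for each genotype no spread between animals could be estimated, and the 95% intervals below cover counting error only, although the UMIs of 1 barcode are not independent of each other.

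The mitochondrial genome encodes core subunits of the respiratory chain, and its transcripts stay inside the organelle. Most messengers of nuclear genes are exported to the cytosol, whereas some long noncoding RNAs and unspliced transcripts are retained in the nucleus. A high mitochondrial share is commonly used to set aside barcodes of damaged cells, although intact cell types also differ in how much mitochondrial RNA they hold, and mature neutrophils hold little.

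The libraries held 54160590 UMIs in the homozygous, 78426908 in the heterozygous and 77173735 in the wild-type library. Between 21 and 26 barcode sequences were shared by any pair of libraries, and among the high-share barcodes 0 were shared by the homozygous and heterozygous, 6 by the homozygous and wild-type and 2 by the heterozygous and wild-type libraries. Fabp4 gave 2 UMIs in the high-share and 5 in the low-share barcodes of the homozygous library, 5 and 38 in those of the heterozygous library, and 23 and 50 in those of the wild-type library. Its level in high-share barcodes was 0.314 CPM in the homozygous library (95% exact Poisson interval 0.0380 to 1.13), 1.18 CPM in the heterozygous library (0.383 to 2.75) and 3.02 CPM in the wild-type library (1.91 to 4.53). The order of these levels followed the genotypes, but the labels do not give the deleted part of the gene, and UMIs from its 3' end may lie outside it.

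High-share barcodes made up 46.8% of the homozygous library (3797 of 8115, exact binomial interval 45.7 to 47.9), 25.8% of the heterozygous library (2760 of 10718, 24.9 to 26.6) and 40.6% of the wild-type library (3828 of 9432, 39.6 to 41.6). The share thus differed between libraries by more than counting error, but variation between mice could not be separated from genotype. Most high-share barcodes lay between 10 and 25%: 2867 in the homozygous, 1789 in the heterozygous and 2114 in the wild-type library. Between 25 and 50% there were 705, 598 and 1409 in the same libraries, and at 50% or more 225, 373 and 305.

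Both terms of the share differed between the barcodes, and the non-mitochondrial UMIs differed more. The median number of non-mitochondrial UMIs in high-share and low-share barcodes was 1348 and 8746.5 in the homozygous library, 1259.5 and 7481 in the heterozygous library, and 1423 and 9754.5 in the wild-type library, which is 6.49, 5.94 and 6.85 times lower in high-share barcodes. The median number of mitochondrial UMIs was 355 and 248 in the homozygous library, 403 and 151 in the heterozygous library, and 574 and 314 in the wild-type library, which is 1.43, 2.67 and 1.83 times higher in high-share barcodes. A high share therefore went with few nuclear-encoded transcripts and a moderately larger number of mitochondrial ones. As a result the high-share barcodes held only 12.5%, 5.63% and 10.5% of the non-mitochondrial UMIs of the homozygous, heterozygous and wild-type library, and 55.1%, 42.0% and 51.7% of their mitochondrial UMIs.

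Along the bands of mitochondrial share the non-mitochondrial UMIs dropped most between the barcodes under 10% and those at 10 to 25%. In the wild-type library their median was 9754.5 under 10%, 1825 at 10 to 25%, 1313 at 25 to 50% and 416 at 50% or more, while that of the mitochondrial UMIs was 314, 397, 690 and 1047. At the limit itself there was no gap in the homozygous library, where barcodes at 9 to 10% had a median of 1767 non-mitochondrial UMIs and those at 10 to 11% had 1753. In the heterozygous library the same medians were 3270 and 1811, and in the wild-type library 4621 and 3427. Barcodes just under the limit were thus already far below the low-share median in all 3 libraries.

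**Figure D1:**
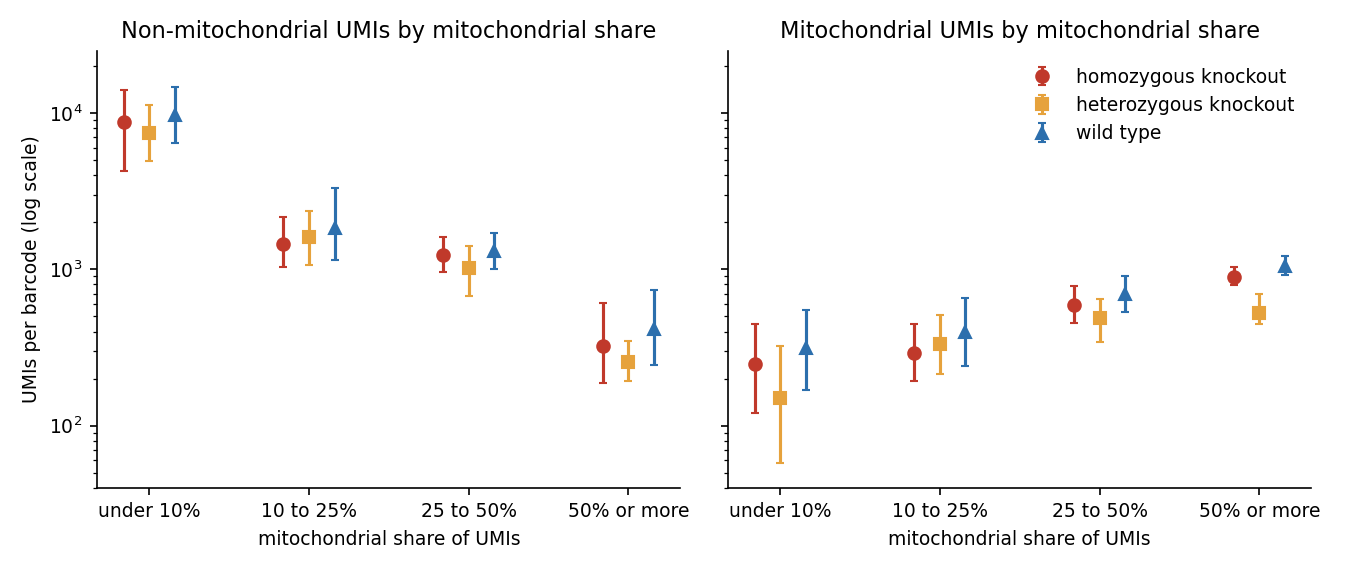
Non-mitochondrial UMIs (left) and mitochondrial UMIs (right) of a barcode, on a log scale, by the mitochondrial share of the barcode in 3 libraries; points are medians over barcodes and bars run from the first to the third quartile. Non-mitochondrial medians are lower in each higher band in all 3 libraries (wild type: 9754.5, 1825, 1313 and 416 UMIs), while mitochondrial medians are higher in each (wild type: 314, 397, 690 and 1047 UMIs).

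The number of genes detected followed the depth. High-share and low-share barcodes had a median of 974 and 3059 genes in the homozygous, 906 and 2574 in the heterozygous and 1013.5 and 3248 in the wild-type library. After every barcode was thinned to 300 non-mitochondrial UMIs the medians were 264 and 256 genes in the homozygous, 262 and 242 in the heterozygous and 264 and 255 in the wild-type library, so at equal depth a high-share barcode showed slightly more distinct genes. At 50% or more of mitochondrial UMIs the thinned medians were 252, 255 and 259 genes in the same libraries, in the homozygous library below that of low-share barcodes. Thinning left out 105, 235 and 119 high-share barcodes of the homozygous, heterozygous and wild-type library that had fewer than 300 such UMIs, most of them in that band, and no low-share barcode.

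The makeup of the mitochondrial transcripts themselves barely differed. mt-Atp6, a subunit of ATP synthase, took 22.3% and 23% of the mitochondrial UMIs of high-share and low-share barcodes in the homozygous library, 22.98% and 22.97% in the heterozygous library and 22.6% and 23.5% in the wild-type library. mt-Co1, the catalytic subunit of cytochrome c oxidase, took 20.4% and 20.8% in the homozygous, 19.7% and 20.7% in the heterozygous and 18.3% and 18.5% in the wild-type library. It was the only 1 of the 13 genes with a lower share in the high-share barcodes of all 3 libraries. At 50% or more of mitochondrial UMIs it stood at 17.3%, 17.0% and 16.1% in the homozygous, heterozygous and wild-type library. mt-Nd5, a subunit of complex I, took 1.64% and 1.28%, 0.965% and 0.881%, and 1.37% and 1.25% in high-share and low-share barcodes of the same libraries. It, mt-Nd2, mt-Nd4l, mt-Nd6, mt-Atp8 and mt-Co3 were the 6 genes with a higher share in the high-share barcodes of all 3.

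To see which nuclear transcripts were kept or lost, UMIs were summed over the high-share and over the low-share barcodes of each library and compared as a log2 ratio of CPM, high over low. Of the 11929 genes with at least 100 UMIs in every library, 1886 (15.8%) were at least 2-fold higher in the high-share barcodes of all 3 libraries and 460 (3.86%) were at least 2-fold lower. In single libraries 23.3% of genes were at least 2-fold higher and 10.4% lower in the homozygous, 24.5% and 5.92% in the heterozygous and 19.5% and 6.74% in the wild-type library, and with no limit on size 59.5% of genes were higher and 23.3% lower in all 3. The median log2 ratio of all these genes was 0.35 in the homozygous, 0.44 in the heterozygous and 0.34 in the wild-type library. Relative to that median the split was 973 genes higher and 1109 lower. Without rescaling, only 116 genes (0.972%) had more UMIs per barcode in the high-share barcodes of all 3 libraries, so for most genes a higher CPM stood beside fewer UMIs in a barcode. These counts compare barcodes of unequal depth. Between barcodes that all held 1000 to 2000 non-mitochondrial UMIs, 3 of 3932 genes were higher and 12 lower. Between those that held 5000 to 10000, 554 of 8537 were higher and 195 lower, as described further below.

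The transcripts that were highest relative to the rest were a small group with strong differences in all 3 libraries. Rmrp, the RNA of the RNase MRP particle that processes ribosomal RNA, had 138 CPM in high-share and 7.89 CPM in low-share barcodes of the homozygous library, 65.7 and 2.05 CPM in the heterozygous library, and 47.9 and 1.96 CPM in the wild-type library. Ccnb1ip1, a ubiquitin ligase gene that overlaps Rpph1, the RNA of RNase P, on the same strand, had 362 and 23.5, 152 and 6.20, and 108 and 5.89 CPM in the same order. Rmrp thus had log2 ratios of 4.13 (95% interval 3.95 to 4.31) in the homozygous, 4.998 (4.71 to 5.30) in the heterozygous and 4.61 (4.32 to 4.92) in the wild-type library. UMIs of Ccnb1ip1 and Rpph1 cannot be told apart by position here. Both genes were among those with more UMIs per barcode even without rescaling.

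The other genes named as highest had varied roles. Zfp791, a zinc finger gene, had 816 and 55.3 CPM in high-share and low-share barcodes of the homozygous, 270 and 8.37 CPM in those of the heterozygous and 335 and 10.4 CPM in those of the wild-type library. Taco1, a translational activator of the mitochondrial Co1 messenger, had 636 and 45.5 CPM, 408 and 20.9 CPM, and 466 and 33.4 CPM in the same libraries. Lars2, the mitochondrial leucyl-tRNA synthetase, had 6436 and 799 CPM in the homozygous, 2560 and 285 CPM in the heterozygous and 2458 and 250 CPM in the wild-type library. In each library the lowest of these ratios was that of Lars2, with a log2 of 3.01, 3.17 and 3.30 in the homozygous, heterozygous and wild-type library. Cdk8, a kinase of the Mediator complex, had log2 ratios of 2.82, 2.84 and 2.89. The other genes named by the same rule were the H2A histone genes H2ac21 and H2ac18, the semaphorin gene Sema3c, Naaladl2, Ccdc96 and a second gene model annotated as Ptp4a1 (ENSMUSG00000117310), with log2 ratios between 3.02 (H2ac18, wild type) and 4.10 (Ptp4a1, heterozygous). Of these 12 genes Lars2, Sema3c and Ccdc96 overlapped no other annotated gene, while the others overlapped at least 1, so that part of their UMIs may belong to a neighbour.

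Malat1, a long noncoding RNA of nuclear speckles, was the most abundant transcript that was higher in high-share barcodes. It had 28536 and 11748 CPM in high-share and low-share barcodes of the homozygous library, 34684 and 13879 CPM in the heterozygous library, and 35339 and 12930 CPM in the wild-type library, with log2 ratios of 1.28, 1.32 and 1.45. Counted per barcode it was lower: 47.9 and 121.7 UMIs in the homozygous, 53.3 and 124.0 in the heterozygous and 70.3 and 149.7 in the wild-type library. Between barcodes of 1000 to 2000 non-mitochondrial UMIs its log2 ratios were near 0, at 0.01, 0.08 and -0.02. Between those of 5000 to 10000 they were 0.85, 0.80 and 0.74. Neat1, the RNA that builds paraspeckles, had log2 ratios of 0.66, 0.71 and 0.69 in the homozygous, heterozygous and wild-type library and so missed a 2-fold difference. The direction of Neat1 turned to a mean log2 ratio of -0.23 between barcodes of 1000 to 2000 non-mitochondrial UMIs. Between those of 5000 to 10000 its log2 ratios were 0.50, 0.71 and 0.56.

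The 12 genes named as lowest were mostly messengers of the neutrophil lineage. S100a8, a subunit of calprotectin, had 2402 and 11015 CPM in high-share and low-share barcodes of the homozygous, 6631 and 30589 CPM in those of the heterozygous and 2398 and 9699 CPM in those of the wild-type library. Ngp, neutrophilic granule protein, had 335 and 1597 CPM, 1678 and 7211 CPM, and 409 and 1882 CPM in the same libraries. Lyz2, lysozyme of granulocytes and monocytes, had 461 and 3303 CPM in the homozygous, 858 and 3269 CPM in the heterozygous and 439.6 and 2147 CPM in the wild-type library. All 3 genes were much lower in every library, with log2 ratios of -2.20, -2.21 and -2.02 for S100a8, -2.25, -2.10 and -2.20 for Ngp, and -2.84, -1.93 and -2.29 for Lyz2 in the homozygous, heterozygous and wild-type library.

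The other 9 were the stefin A protease inhibitor genes Stfa2, Stfa2l1 and Stfa3 with the related Cstdc4, the granule genes Camp (cathelicidin) and Lcn2 (lipocalin that binds iron carriers), the calcium-binding S100a6, Ifitm6 and the phospholipase-like Plbd1. Their log2 ratios ran from -2.69 (Ifitm6, homozygous) to -1.88 (Cstdc4, wild type). These values depended on which clusters were included, and the part of cell composition in them was not tested. In the heterozygous library 1.70% of the high-share barcodes, against 44.0% of the low-share barcodes, fell into clusters with mature neutrophil markers. In the homozygous library these shares were 0.263% and 8.24%, and in the wild-type library 0.418% and 10.35%. When those clusters were left out, the mean log2 ratio over the 3 libraries was -0.48 for Stfa3, -0.91 for Stfa2, -0.90 for Plbd1, -1.16 for Lcn2, -1.55 for S100a6 and -1.56 for Ifitm6, and these 6 were then no longer 2-fold lower in all 3 libraries.

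Housekeeping messengers of the cytosol were lower as groups. Of 83 genes of cytosolic ribosomal proteins 80 had enough UMIs, and 39 of these were at least 2-fold lower in all 3 libraries, none at least 2-fold higher, beside 3.86% and 15.8% of all genes. Their summed level in high-share and low-share barcodes was 49728 and 139640 CPM in the homozygous, 55670 and 101220 CPM in the heterozygous and 70030 and 153060 CPM in the wild-type library, and the median log2 ratio of the members was -1.61, -0.98 and -1.24. With no limit on size 78 of the 80 were lower in all 3 libraries, beside 23.3% of all genes. At 1000 to 2000 non-mitochondrial UMIs the direction turned, with a mean median over libraries of 0.20. At 5000 to 10000 the medians were -0.40, -0.03 and -0.43 in the homozygous, heterozygous and wild-type library. Rpl10 of the large subunit had a log2 ratio of -2.24 in the homozygous, -1.46 in the heterozygous and -1.84 in the wild-type library, and Rps13 of the small subunit -2.22, -1.49 and -1.81. Rpsa, which encodes both a ribosomal protein and the laminin receptor, was the only member higher in all 3, with 3130 and 2551 CPM, 3106 and 1781 CPM, and 4064 and 2711 CPM in high-share and low-share barcodes of the same libraries.

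Nuclear genes of the respiratory chain were lower as well. Of 49 measured, 26 were at least 2-fold lower in all 3 libraries and none at least 2-fold higher, with medians of -1.51, -1.07 and -1.17 in the homozygous, heterozygous and wild-type library, beside 3.86% and 15.8% of all genes. At 1000 to 2000 non-mitochondrial UMIs 0 of 39 passed 2-fold and the medians were -0.04, 0.22 and -0.06. At 5000 to 10000 the medians were -0.56, -0.29 and -0.46. Cox8a, a small subunit of cytochrome c oxidase, had 121 and 564 CPM, 159 and 461 CPM, and 164 and 538 CPM in high-share and low-share barcodes of the homozygous, heterozygous and wild-type library. Atp5a1, the alpha subunit of ATP synthase, was the exception, with log2 ratios of 0.34, 0.73 and 0.65. Among 23 other abundant cytosolic messengers 10 were at least 2-fold lower in all 3 and none higher. They included Tmsb4x (thymosin beta), whose log2 ratios were -1.88, -1.43 and -1.48 in the homozygous, heterozygous and wild-type library, and the actin-binding Pfn1 with -1.49, -1.66 and -1.34.

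Genes that build and serve the mitochondrial ribosome were mostly lower. Of 24 such genes 8 were at least 2-fold lower in all 3 libraries, beside 3.86% of all genes. With no limit on size 17 were lower in all 3, beside 23.3% of all genes. The list median was -1.01, -0.64 and -0.91 in the homozygous, heterozygous and wild-type library. Between barcodes of 5000 to 10000 non-mitochondrial UMIs it was -0.19, 0.10 and -0.09. Among the 8 were the ribosomal subunits Mrps14 (-1.87, -1.43 and -1.60 in the homozygous, heterozygous and wild-type library) and Mrpl30 (-1.78, -1.09 and -1.34). The 2 at least 2-fold higher were the mitochondrial RNA polymerase Polrmt, with 1.78, 1.46 and 1.07, and the mitochondrial DNA polymerase Polg, with 1.73, 1.41 and 1.41. Of 18 genes of mitochondrial stress and mitophagy, 2 were at least 2-fold higher and none lower. Neither list thus had a larger share of higher genes than the 15.8% of all genes. The matrix protease gene Lonp1 had log2 ratios of 1.68, 1.70 and 1.63, while Pink1, a kinase of mitochondrial quality control, had -0.01, 0.02 and 0.02.

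Lineage markers were not lost evenly. Of 13 mature neutrophil markers 8 were at least 2-fold lower in all 3 libraries, beside 3.86% of all genes. The list median was -1.61 in the homozygous, -1.64 in the heterozygous and -1.58 in the wild-type library. Csf3r, the receptor of granulocyte colony-stimulating factor, stood apart from them with 133 and 81.1 CPM in high-share and low-share barcodes of the homozygous, 148 and 108 CPM in those of the heterozygous and 92.2 and 62.9 CPM in those of the wild-type library. Of 12 immature neutrophil markers 7 were at least 2-fold lower, and of 15 genes of secondary and tertiary granules 9. The primary granule genes, made at an earlier stage, were lower by less: 1 of 10, Serpinb1a, passed 2-fold, and the median was -1.04, -0.57 and -0.72, which turned to a mean of 0.36 over libraries at 1000 to 2000 non-mitochondrial UMIs. Mpo, myeloperoxidase of the primary granules, was higher, with 509 and 338 CPM, 561 and 198 CPM, and 844 and 479 CPM in high-share and low-share barcodes of the same libraries, whereas Elane, neutrophil elastase of the same granules, had log2 ratios of -1.23, -0.67 and -0.75. Without the mature neutrophil clusters the median of the mature neutrophil list, as a mean over the libraries, was -0.49.

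Among 12 monocyte and macrophage markers 3 were at least 2-fold lower in all 3 libraries, beside 3.86% of all genes. They were the chemokine receptor Ccr2, with log2 ratios of -1.77, -1.07 and -1.41 in the homozygous, heterozygous and wild-type library, the surface protein Ly6c2, with -2.27, -1.38 and -1.67, and Ms4a6c, with -2.38, -1.57 and -2.12. Csf1r, the receptor of the macrophage growth factor, had -0.04, 0.56 and -0.04 in the same libraries. The list median was -0.38 in the homozygous, 0.30 in the heterozygous and -0.30 in the wild-type library, a difference in direction that was not tested. Of 7 measured dendritic cell markers Cd74, the invariant chain, and H2-Aa, a class II chain, were at least 2-fold lower, Cd74 with 56.9 and 193 CPM in high-share and low-share barcodes of the homozygous, 240 and 504 CPM in those of the heterozygous and 37.6 and 136 CPM in those of the wild-type library.

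Stem and progenitor markers showed both directions. Of 9 measured, Kit, the receptor of stem cell factor, and the transcription factor Sox4 were at least 2-fold higher in all 3 libraries, beside 15.8% of all genes. Log2 ratios were 1.42, 1.61 and 1.32 for Kit and 1.49, 2.30 and 1.21 for Sox4 in the homozygous, heterozygous and wild-type library. Cd34, the sialomucin of progenitors, had -1.30, -0.40 and -1.53. The median of the list was near that of all genes, at -0.02, 0.37 and 0.28, and its mean over libraries turned to -0.17 when ratios were taken relative to the median of all genes. Markers of cells that marrow also holds were rare in both kinds of barcode. Summed over their lists, high-share and low-share barcodes had 45 and 116 CPM of T and natural killer cell markers in the homozygous, 71.9 and 103 CPM in the heterozygous and 74.9 and 142 CPM in the wild-type library, and 19.9 and 24.96, 18.4 and 15, and 23.6 and 25.7 CPM of B cell markers.

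Lists of nuclear and cell cycle transcripts had medians above 0, but few of their members passed 2-fold, in shares not far from the 15.8% of all genes that were at least 2-fold higher. Of 10 measured nuclear-retained long noncoding RNAs, Malat1 and Firre were at least 2-fold higher in all 3 libraries, and the list median was 0.79 in the homozygous, 0.81 in the heterozygous and 0.86 in the wild-type library. With no limit on size 9 of the 10 were higher in all 3, beside 59.5% of all genes. Firre, an X-linked nuclear RNA, had 26.5 and 7.0 CPM, 23.1 and 4.91 CPM, and 36.8 and 9.94 CPM in high-share and low-share barcodes of the homozygous, heterozygous and wild-type library. Xist, the RNA that coats the inactive X chromosome, which was chosen after its values were seen, had log2 ratios of 1.46, 2.03 and 1.59 in the same libraries. Of 26 spliceosome and speckle genes 3 were at least 2-fold higher and none lower: Son, a core protein of nuclear speckles, with 2.02, 1.76 and 1.75, Srrm2, its partner there, with 1.56, 1.32 and 1.27, and the splicing regulator Tra2b with 1.26, 1.18 and 1.04.

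Of 46 genes of the G2 and M phases 10 were at least 2-fold higher and 1, the kinase subunit Cks1b, lower, beside 15.8% and 3.86% of all genes. Mki67, the proliferation marker that coats mitotic chromosomes, had 1187 and 290 CPM in high-share and low-share barcodes of the homozygous, 590 and 142 CPM in those of the heterozygous and 550 and 145 CPM in those of the wild-type library. Birc5, survivin, had log2 ratios of -0.97, -0.40 and -0.84 in the same libraries, so mitotic genes did not share 1 direction. Of 40 S phase genes 4 were at least 2-fold higher and none lower, beside 15.8% and 3.86% of all genes. Histone genes of the replication-dependent clusters, a list drawn up after the first values were seen, had the largest medians of the lists: 50 of 60 were at least 2-fold higher in all 3 libraries, with medians of 2.35, 2.31 and 2.24 in the homozygous, heterozygous and wild-type library. At 1000 to 2000 non-mitochondrial UMIs 0 of 31 passed 2-fold in all 3 libraries, with medians of -0.19, 1.46 and 1.16 in the same libraries. At 5000 to 10000 non-mitochondrial UMIs 30 of 38 histone genes were at least 2-fold higher in all 3, beside 6.49% of all genes there. Their summed level in high-share and low-share barcodes was 11338 and 3404 CPM, 6685 and 2424 CPM, and 6454 and 2038 CPM in these libraries. H3c1, a histone H3 gene, had 278 and 41.9 CPM, 157 and 21.6 CPM, and 124 and 19.4 CPM.

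Stress programmes differed little as lists. Of 17 immediate early and dissociation genes, Jun and Fosb, subunits of the AP-1 factor, were at least 2-fold higher in all 3 libraries, beside 15.8% of all genes, Jun with 4990 and 1427 CPM in high-share and low-share barcodes of the homozygous, 4680 and 1730 CPM in those of the heterozygous and 3362 and 1016 CPM in those of the wild-type library. Fos itself had log2 ratios of 0.70, 0.36 and 0.33 and Klf2, a transcription factor also induced by handling, -0.29, -0.50 and -0.23. None of 17 apoptosis and p53 genes passed 2-fold in all 3 libraries. Bax, which opens the outer mitochondrial membrane, had log2 ratios of -1.35, -0.93 and -1.21 and Pmaip1, a BH3-only activator of cell death, 1.15, 0.96 and 0.91 in the homozygous, heterozygous and wild-type library. None of 17 heat shock genes passed either. Relative to the median of all genes, the mean list medians over libraries of the apoptosis and the heat shock genes, 0.22 and 0.36 as they stand, became -0.16 and -0.021. At 1000 to 2000 non-mitochondrial UMIs those of the immediate early and the apoptosis list were -0.080 and -0.032.

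Members of metabolic and secretory lists were called in both directions, beside 15.8% of all genes at least 2-fold higher and 3.86% lower. None of the lists in this paragraph had a larger share of higher genes than all genes did. Of 16 glycolysis genes the first enzyme Hk2 and the glucose transporter Slc2a1 were at least 2-fold higher in all 3 libraries, Hk2 with log2 ratios of 1.47, 1.38 and 1.43 in the homozygous, heterozygous and wild-type library, while the later enzymes Pgk1, Pgam1 and Eno1 were lower, Eno1 with -1.67, -1.39 and -1.43. Of 19 antioxidant and iron genes the ferritin chains Fth1 and Ftl1, the peroxiredoxins Prdx2 and Prdx5 and the haem oxygenase Hmox1 were at least 2-fold lower, and the transferrin receptor Tfrc was higher, with 1.69, 1.43 and 1.55. Of 26 genes of protein entry and folding in the endoplasmic reticulum 6 small subunits of the translocon and its partners were lower, among them Sec61b with -2.21, -1.60 and -1.65, and the chaperone Hspa5 was higher, with 1.30, 1.22 and 1.21. Of 31 interferon response genes 5 were at least 2-fold lower (Isg15, Ifi27l2a, Bst2, Zbp1 and Phf11b), and the list median was -1.01, 0.07 and -0.54.

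**Figure D2:**
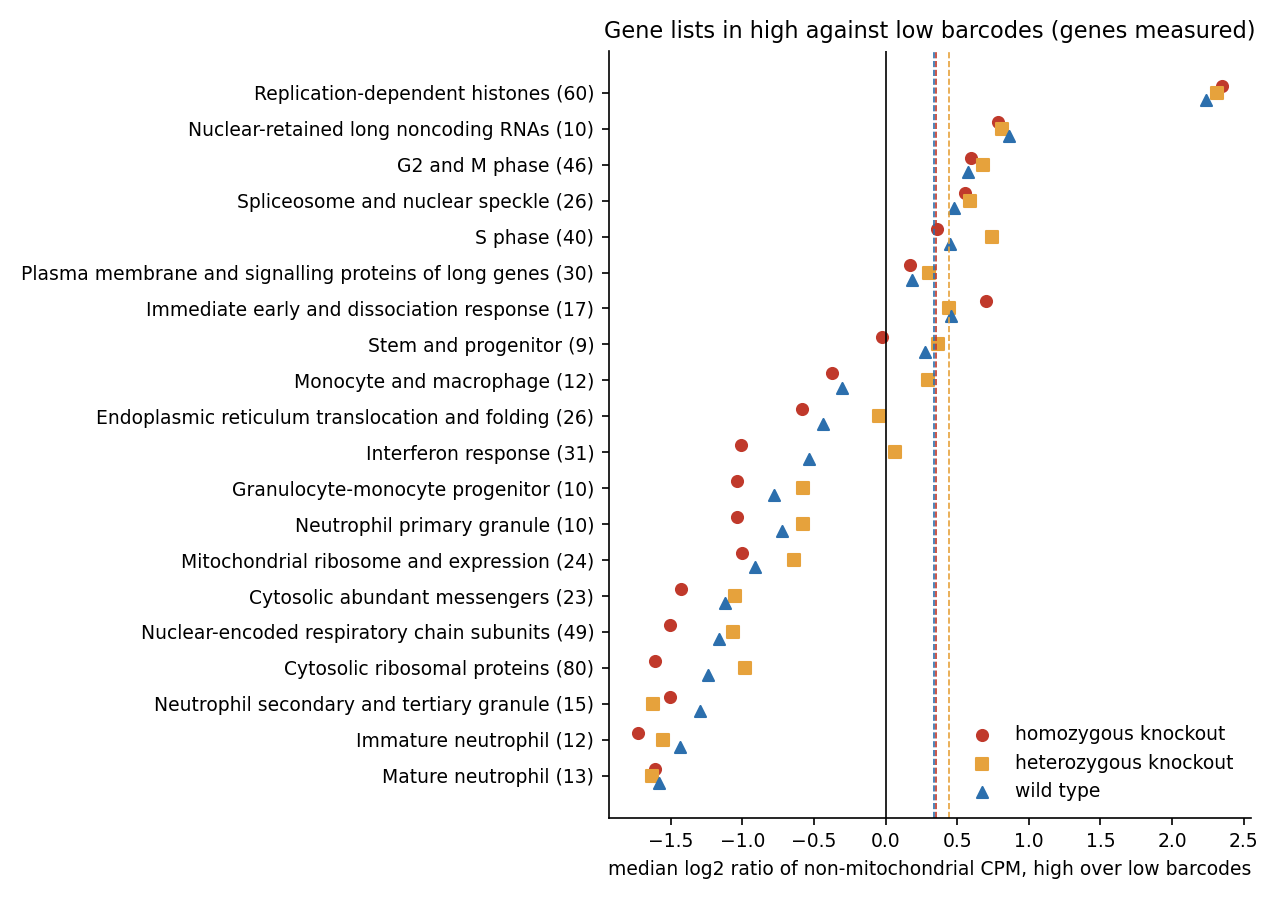
Median log2 ratio of non-mitochondrial CPM, high-share over low-share barcodes, for 20 gene lists (number of measured genes in brackets) in 3 libraries; dashed lines are the medians of all genes (0.35, 0.44 and 0.34 in the homozygous, heterozygous and wild-type library). Replication-dependent histones lie above 2 in all 3 libraries, while the mature and immature neutrophil, ribosomal protein and respiratory chain lists lie near or below -1; relative to the median of all genes the stem and progenitor list and the long-gene membrane protein list fall below 0 as means over the libraries.

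The transcripts followed different courses along the bands. Some were highest at 50% or more in nearly every library. Cmss1, a nucleolar protein gene chosen after its values were seen, had 1662 CPM under 10%, 9987 at 10 to 25%, 16036 at 25 to 50% and 40170 at 50% or more in the homozygous library, 693, 4489, 8693 and 10646 CPM in the heterozygous library, and 712, 3782, 6708 and 12862 CPM in the wild-type library. Taco1 had 45.5, 577, 894 and 1301 CPM in the homozygous, 20.9, 314, 639 and 1818 CPM in the heterozygous and 33.4, 312, 755 and 2029 CPM in the wild-type library. Lars2 had 799, 5831, 8830 and 15631 CPM in the homozygous, 285, 2183, 4213 and 4160 CPM in the heterozygous and 250, 1809, 3862 and 6699 CPM in the wild-type library, so only in the heterozygous library was its level at 50% or more not above that at 25 to 50%. Cdk8, the scaffold protein gene Gphn and the kinase gene Camk1d followed the same order in all 3 libraries, the last 2 also chosen after their values were seen. Cmss1 and Filip1l lie on opposite strands of 1 locus and overlap, and Filip1l had 358, 1462, 2172 and 4360 CPM in the homozygous library.

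Other transcripts turned back in the highest band. Malat1 had 11748, 28740, 28223 and 20449 CPM from the lowest to the highest band in the homozygous, 13879, 35094, 34934 and 21301 CPM in the heterozygous and 12930, 33680, 40019 and 32197 CPM in the wild-type library. S100a8 had 11015, 2507, 1697 and 3798 CPM in the homozygous, 30589, 6422, 6232 and 14993 CPM in the heterozygous and 9699, 2716, 1518 and 2798 CPM in the wild-type library. The same course held for the sum of ribosomal protein genes, with 139640, 49961, 46503 and 69538 CPM in the homozygous, 101220, 54479, 55628 and 90667 CPM in the heterozygous and 153060, 69805, 69017 and 90686 CPM in the wild-type library. The sums at 50% or more rest on few UMIs, since the median barcode there had 323, 256 and 416 non-mitochondrial UMIs in the homozygous, heterozygous and wild-type library. How much of these UMIs came from RNA free in the droplets was not tested.

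The band at 50% or more also had the highest levels of platelet and red cell markers. Summed megakaryocyte markers had 36.6, 37.4, 150 and 795 CPM from the lowest to the highest band in the heterozygous library, 13.4, 10.4, 20.5 and 125 CPM in the homozygous library and 13.9, 18.6, 23.7 and 284 CPM in the wild-type library. Summed erythroid markers had 86.7, 15.9, 252 and 820 CPM in the heterozygous, 7.54, 20.3, 9.25 and 41.6 CPM in the homozygous and 5.83, 5.16, 8.38 and 132 CPM in the wild-type library. Both sums had their highest values at 50% or more, where they were larger in the heterozygous than in the other libraries, but they rest on few UMIs. Megakaryocyte markers had 12, 94 and 45 UMIs there in the homozygous, heterozygous and wild-type library. Erythroid markers had 4, 97 and 21, so the homozygous erythroid level is too uncertain to be ranked above the lower bands.

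**Figure D3:**
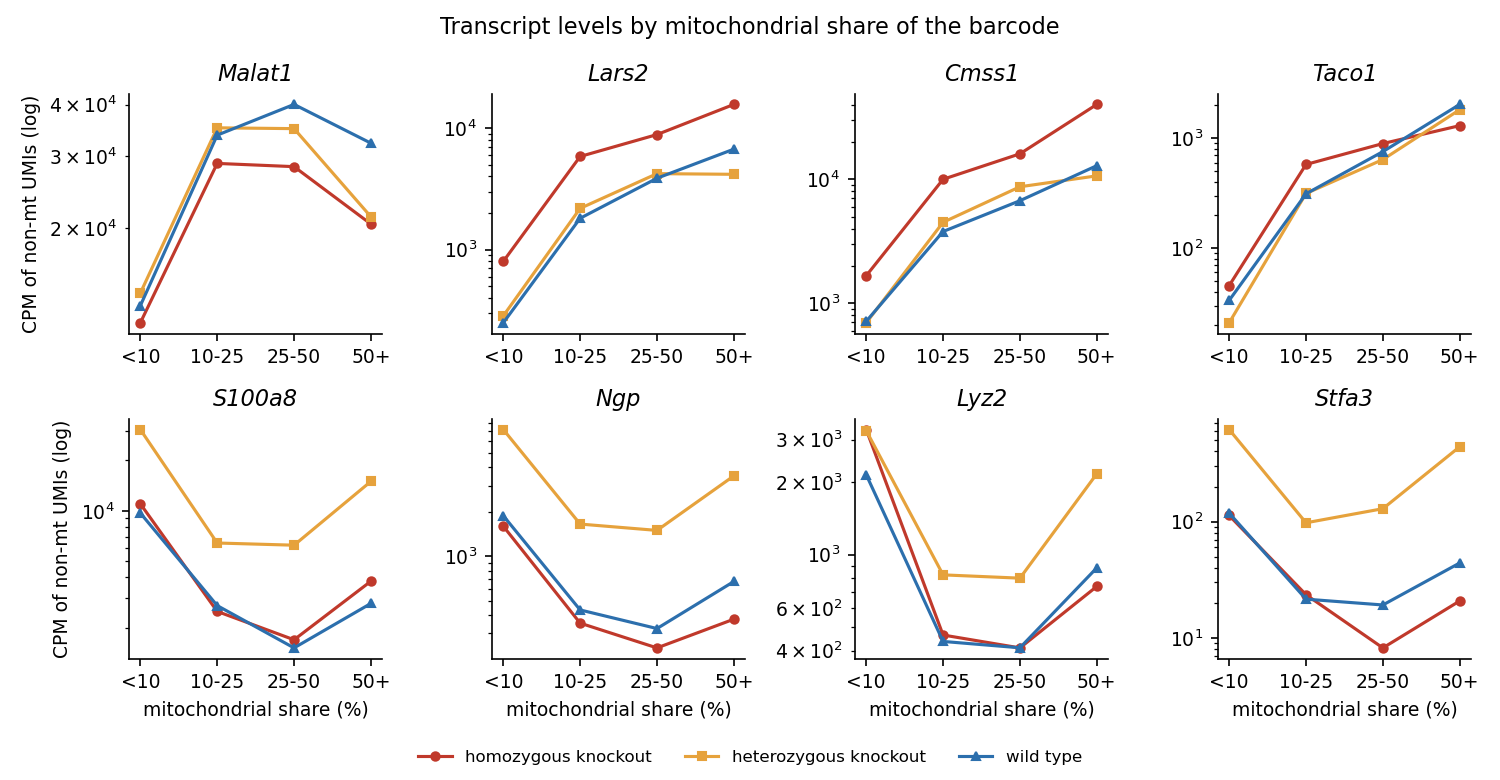
CPM of non-mitochondrial UMIs (log scale, a scale of its own in each panel) of 8 transcripts by mitochondrial share of the barcode (%), in 3 libraries. Lars2, Cmss1 and Taco1 keep their highest levels at 25% or more, Malat1 is highest at 10 to 50%, and S100a8, Ngp, Lyz2 and Stfa3 are lowest in the middle bands and partly higher again at 50% or more.

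Shares of barcodes with a UMI at equal depth differed widely for some markers and little for others. After thinning to 300 non-mitochondrial UMIs, Lyz2 was seen in 12.2% of high-share and 36.5% of low-share barcodes of the homozygous, 22.1% and 48.5% in the heterozygous and 11.9% and 32.7% in the wild-type library. Unthinned, its shares were 42.5% and 82.6%, 59.7% and 94.8%, and 44.8% and 90.5%. Lars2 was seen in 78.6% and 28.8%, 49.7% and 9.98%, and 53.8% and 9.87% of thinned barcodes of the same libraries, and in 97.5% and 92.4%, 83.8% and 70.3%, and 91.5% and 78.0% unthinned. S100a8 differed far less in the share of barcodes that held it than in level, with 39.5% and 42.8%, 77.0% and 80.6%, and 35.3% and 42.7% of thinned barcodes (82.7% and 93.9%, 98.4% and 99.9%, and 82.5% and 96.8% unthinned). At least 1 UMI of any mature neutrophil marker was seen in 63.8% and 65.1%, 95.6% and 94.7%, and 65.7% and 74.7% of thinned barcodes of these libraries (96.9% and 99.4%, 100% and 100%, and 97.5% and 99.8% unthinned). S100a8 UMIs were also found in low-share barcodes of the stem and progenitor-like clusters, at 620 CPM in the homozygous, 2713 CPM in the heterozygous and 1172 CPM in the wild-type library, so a barcode with an S100a8 UMI is not read as a cell that made it.

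Gene structure went with the ratios. Among protein-coding genes, the 1116 that span less than 5 kb had a median log2 ratio of -0.36 in the homozygous, -0.16 in the heterozygous and -0.31 in the wild-type library, and 15.9% of them were at least 2-fold lower in all 3 libraries. The 3439 genes of 5 to 20 kb had medians of 0.20, 0.36 and 0.21, and the 1329 genes over 100 kb medians of 0.44, 0.49 and 0.40, of which 0.301% were at least 2-fold lower. The share of lower genes was thus smaller among longer genes, while the share of higher genes was 12.7% under 5 kb, 14.4% at 5 to 20 kb and 9.78% over 100 kb. Among genes above the median level, those under 5 kb had medians of -0.84, -0.51 and -0.68 and those over 100 kb 0.36, 0.40 and 0.34. Among genes below that level, those under 5 kb had 0.03, 0.23 and -0.05 and those over 100 kb 0.64, 0.70 and 0.60. The ratios thus went with both span and level. The percentage of the span that is intron went with smaller differences: genes with under 50% intron had medians of 0.26, 0.34 and 0.18, and those over 95% had 0.33, 0.40 and 0.29. Whether the counting included intron reads is not given in the sources used here.

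**Figure D4:**
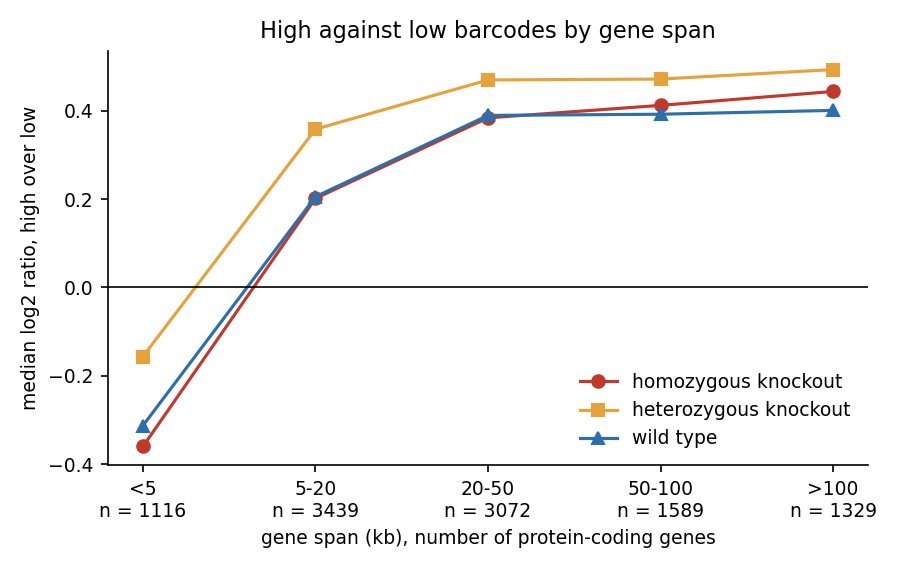
Median log2 ratio of CPM, high-share over low-share barcodes, of protein-coding genes by gene span (kb; n is the number of genes) in 3 libraries. Genes under 5 kb lie below 0 in all 3 libraries (-0.36, -0.16 and -0.31 in the homozygous, heterozygous and wild-type library) and the medians of longer genes lie between 0.20 and 0.49.

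Noncoding genes were called higher more often than protein-coding ones, which is a count and not a test. At least 2-fold higher in all 3 libraries were 36.1% of 421 antisense genes, 33.0% of 285 long intergenic noncoding RNAs, 34.5% of 200 processed transcripts and 62.1% of 58 bidirectional promoter RNAs, beside 12.6% of 10545 protein-coding genes. Gene models with no name beyond a number or clone made up 11.5% of the genes measured and 28.5% of those higher, and 9.13% of those lower. The 46 sense intronic transcripts went the other way, with medians of -0.61, -0.54 and -0.39 in the homozygous, heterozygous and wild-type library. UMIs of antisense genes can be told from those of their partners only as far as strand was used in the counting, which the sources used here do not state.

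Clustering of all barcodes on non-mitochondrial genes placed most high-share barcodes in 4 of 17 clusters, called low-UMI clusters below. These 4 (numbers 1, 2, 8 and 11) were picked because they took no cell type name and most of their barcodes were high-share. They had low UMI totals and too few lineage markers to be named, and they held 8207 of the 10385 high-share barcodes (79.0%). Of their 9320 barcodes, 88.1% were high-share, a value that this way of picking partly fixed. They took 88.0% of the high-share barcodes of the homozygous, 74.2% of the heterozygous and 73.6% of the wild-type library, and 17.7%, 2.24% and 3.05% of the low-share ones. Inside these clusters the low-share barcodes were as poor in UMIs as the high-share ones, with medians of 1275 and 1283.5 non-mitochondrial UMIs for high-share and low-share barcodes in the homozygous, 1151 and 1432 in the heterozygous and 1231 and 1214 in the wild-type library.

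The 4 clusters differed among themselves, and their leading genes are a description, since the clusters were made from them. Cluster 1 was led by Rmrp, Ccnb1ip1 and Zfp791, and clusters 2 and 8 by histone genes with them. Histone genes summed to 16758 CPM in the high-share barcodes of cluster 2 and 16186 CPM in those of cluster 8 of the homozygous library, against 5427 CPM in those of cluster 1. Cluster 11 was led by Taco1, Cmss1, Lars2 and Camk1d, had a median mitochondrial share of 67.5%, and held 62.2% of the barcodes at 50% or more of the homozygous, 91.7% of the heterozygous and 64.3% of the wild-type library. Lineage traces remained in them. Monocyte and macrophage markers summed to 2392 CPM in cluster 8 and 766 CPM in cluster 2 of the homozygous library, and granulocyte-monocyte progenitor markers to 2605 and 4781 CPM.

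In the clusters that could be named from markers, high-share barcodes were a minority of uneven size. They made up 1.62% of mature neutrophil-like barcodes (73 of 4512), 11.6% of monocyte and macrophage-like (545 of 4709), 11.97% of conventional dendritic cell-like (74 of 618), 14.3% of stem and progenitor-like (482 of 3363) and 18.3% of granulocyte-monocyte progenitor-like barcodes (479 of 2621). The unnamed cluster 0, which raised Elane, Ms4a3, Cebpe and Nkg7, had 16.5% (486 of 2942), and the unnamed cluster 6 had 0 of 51. Of the 36 megakaryocyte-like barcodes 25 were high-share, or 69.4% (exact interval 51.9 to 83.7), of which 19 came from the heterozygous library. The low share of mature neutrophils held in each library, with 2.73% in the homozygous, 1.32% in the heterozygous and 2.68% in the wild-type library. Other shares pooled over the libraries did not hold in each. Granulocyte-monocyte progenitor-like barcodes had 16.2%, 9.29% and 28.6% in the same libraries and conventional dendritic cell-like barcodes 18.4%, 12.2% and 5.26%. The order of the cell types thus differed between libraries. These shares are of barcodes that kept enough RNA to be placed, and those in the 4 low-UMI clusters are not among them.

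High-share and low-share barcodes were also compared within sets that carry 1 name, but not at equal depth. Monocyte and macrophage-like high-share and low-share barcodes had medians of 2755 and 10958 non-mitochondrial UMIs in the homozygous library. In the heterozygous library these were 1586.5 and 8598, and in the wild-type library 3077.5 and 10928. High-share medians were also lower in the other sets named here, and the part of depth within the sets was not tested. In monocyte and macrophage-like barcodes 567 of 11385 genes were at least 2-fold higher in all 3 libraries (4.98%) and 373 lower (3.28%). In granulocyte-monocyte progenitor-like barcodes 403 of 10994 were higher (3.67%) and 239 lower (2.17%). The ribosomal protein genes were lower there too. Their median log2 ratio in the homozygous, heterozygous and wild-type library was -1.39, -1.12 and -1.19 in monocyte and macrophage-like barcodes, -0.78, -1.06 and -1.21 in granulocyte-monocyte progenitor-like barcodes, -1.46, -1.39 and -1.11 in stem and progenitor-like barcodes and -1.12, -1.10 and -0.89 in cluster 0. Malat1 was higher in each of these 4 sets and each library, with log2 ratios from 1.14 (stem and progenitor-like, wild type) to 1.496 (monocyte and macrophage-like, homozygous). Lars2 had log2 ratios from 1.64 (cluster 0, homozygous) to 2.65 (granulocyte-monocyte progenitor-like, heterozygous).

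Neutrophil messengers behaved otherwise. S100a8 had log2 ratios of -0.13, 0.40 and 0.29 in monocyte and macrophage-like and 0.40, 0.15 and -0.60 in stem and progenitor-like barcodes of the homozygous, heterozygous and wild-type library, where its level is low, but -1.74, -1.77 and -2.48 in granulocyte-monocyte progenitor-like barcodes. The low-share barcodes of that set held 20216, 34953 and 14647 CPM of S100a8, more than the low-share barcodes as a whole, and most of them lay in cluster 9, which is led by cell cycle genes, carries the markers Ms4a3, Cebpe, Igfbp4 and Nkg7 but not Mpo or Elane, and also raises 3 immature neutrophil markers. The progenitor name is thus weak for that cluster. Lyz2, which monocytes make themselves, was lower in monocyte and macrophage-like barcodes, with 833 and 5824 CPM in high-share and low-share barcodes of the homozygous, 1506 and 6528 CPM in those of the heterozygous and 812 and 4042 CPM in those of the wild-type library. Different clusters hold most of the barcodes compared in 2 of these sets. Of the granulocyte-monocyte progenitor-like high-share barcodes of the wild-type library 214 of 282 lay in cluster 4, and of those of the homozygous library 99 of 106 lay in cluster 9. Of the monocyte and macrophage-like barcodes of the homozygous library 120 of 157 high-share ones lay in cluster 14 and 886 of 1504 low-share ones in cluster 13.

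Inside the 4 low-UMI clusters few genes differed 2-fold in all 3 libraries between the 2 kinds of barcode, which is partly set by the clustering. Their low-share barcodes had median mitochondrial shares of 7.45% in the homozygous, 7.43% in the heterozygous and 7.76% in the wild-type library, against 2.87%, 1.98% and 2.92% for all low-share barcodes of these libraries. Of 10284 genes 6 were at least 2-fold higher in all 3 libraries (0.0583%) and 5 lower (0.0486%). The median of the ribosomal protein genes was -0.25 in the homozygous, -0.25 in the heterozygous and -0.10 in the wild-type library, and Malat1 had log2 ratios of 0.14, 0.11 and 0.03. With these clusters left out, 713 of 11929 genes were at least 2-fold higher (5.98%) and 280 lower (2.35%), against 1886 and 460 with them. Rmrp, at 138 and 7.89 CPM over all barcodes of the homozygous library, then had 9.87 CPM in high-share and 2.92 CPM in low-share barcodes.

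High-share and low-share barcodes were also compared at the same UMI total. Between 1000 and 2000 non-mitochondrial UMIs there were 1767 high-share and 430 low-share barcodes in the homozygous, 1040 and 299 in the heterozygous and 1677 and 161 in the wild-type library. These low-share barcodes had median mitochondrial shares of 7.20%, 5.11% and 7.08% in the same libraries. For all low-share barcodes the medians were 2.87%, 1.98% and 2.92%. Depth and closeness to the limit thus cannot be told apart in this comparison. Of 3932 genes measured there, 3 were at least 2-fold higher in all 3 libraries (0.0763%): Sox4, the ubiquitin-conjugating enzyme Ube2c of mitosis and the RNA-binding Ybx3. Those at least 2-fold lower were 12 (0.305%), among them the stefins Stfa2 and Stfa2l1, the neutrophil surface protein Cd177, the decoy receptor Il1r2, the kinase Fgr and the costimulatory Cd86. Malat1 had 29278 and 29153 CPM in high-share and low-share barcodes of the homozygous, 36684 and 34614 CPM in those of the heterozygous and 40942 and 41447 CPM in those of the wild-type library. The ribosomal protein median was 0.11, 0.25 and 0.23 and that of the respiratory chain genes -0.04, 0.22 and -0.06, so the ribosomal protein genes were not lower at this depth and the respiratory chain genes lay near 0.

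Some lists still had medians away from 0 at 1000 to 2000 UMIs. The mature neutrophil median was -1.06 in the homozygous, -0.78 in the heterozygous and -1.47 in the wild-type library, over 7 members, and 15 of the 430, 107 of the 299 and 13 of the 161 low-share barcodes were mature neutrophil-like. The histone median was -0.19, 1.46 and 1.16 in the same libraries, over 31 members. The S phase median was 0.06, 0.92 and 0.84, that of G2 and M phase 0.01, 0.91 and 0.61, that of granulocyte-monocyte progenitor markers 0.23, 0.80 and 0.71 and that of long-gene membrane proteins -0.17, -0.53 and -0.46. Lars2 had log2 ratios of 0.08, 1.29 and 1.15 and Zfp791 0.35, 1.95 and 1.57. The homozygous library, in which the values for Lars2, Zfp791 and histones were near 0 or below, is also the 1 in which 352 of the 430 low-share barcodes lay in the low-UMI clusters, against 72 of 299 in the heterozygous and 71 of 161 in the wild-type library.

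Between 5000 and 10000 non-mitochondrial UMIs there were 102 high-share and 1274 low-share barcodes in the homozygous, 60 and 3420 in the heterozygous and 231 and 2017 in the wild-type library. Here 554 of 8537 genes were at least 2-fold higher in all 3 libraries (6.49%) and 195 lower (2.28%). Cell cycle genes led: 32 of 43 genes of G2 and M phase were at least 2-fold higher, with medians of 1.64, 2.03 and 1.73 in the homozygous, heterozygous and wild-type library, and 20 of 36 of S phase, with 1.09, 1.59 and 1.37. Histones had medians of 1.86, 2.15 and 1.92, and Malat1 log2 ratios of 0.85, 0.80 and 0.74. The ribosomal protein median was -0.40, -0.03 and -0.43, and no member of that list was 2-fold lower in all 3. Markers of granulocyte-monocyte progenitors had medians of 0.72, 1.38 and 0.92 and mature neutrophil markers -1.45, -1.53 and -1.70, while 217 of the 1274, 1849 of the 3420 and 348 of the 2017 low-share barcodes were mature neutrophil-like. How far these differences come from that mixture of cell types was not tested.

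**Figure D5:**
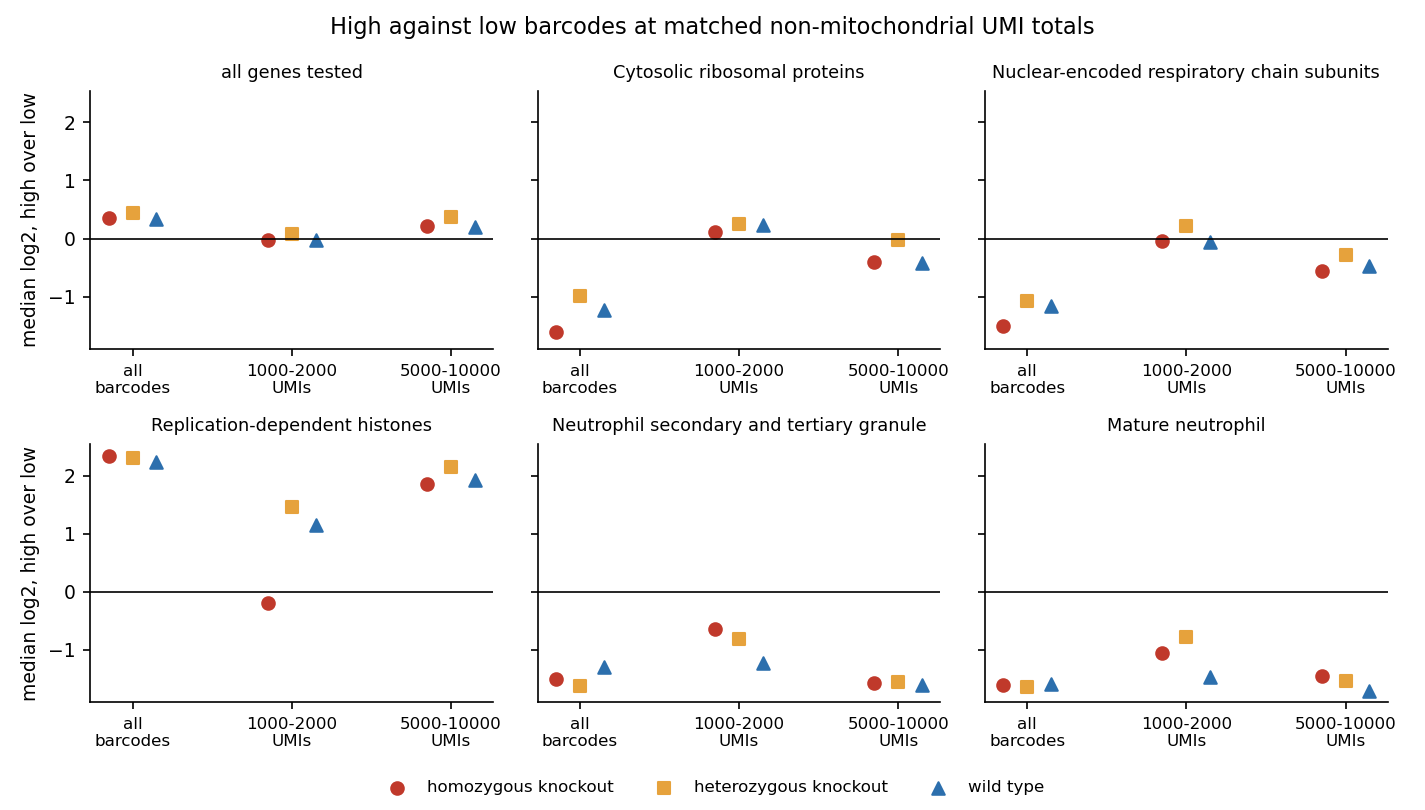
Median log2 ratio of CPM, high-share over low-share barcodes, of all genes and of 5 gene lists in 3 libraries, over all barcodes and over barcodes with 1000 to 2000 or 5000 to 10000 non-mitochondrial UMIs. Ribosomal protein and respiratory chain medians lie between -0.06 and 0.25 at 1000 to 2000 UMIs, against -1.61 to -0.98 over all barcodes, while the mature neutrophil median stays below -0.7 in each setting and library.

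Genotypes were compared among high-share barcodes alone, with 1 library of each and hence no test. Of 10356 genes 279 (2.69%) were at least 2-fold higher and 152 (1.47%) at least 2-fold lower in the homozygous than in the wild-type library. Of 9851 genes 171 (1.74%) were at least 2-fold higher and 160 (1.62%) lower in the heterozygous than in the wild-type library. In low-share barcodes the same shares were 2.40% and 2.16% for the homozygous and 4.05% and 4.10% for the heterozygous library. Both comparisons share the wild-type library, so their values stand side by side with no count of common genes.

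Interferon response genes were higher in the high-share barcodes of the homozygous library. All 23 measured were higher than in the wild-type library, as were 5824 of all 10356 genes, and 12 of the 23 were at least 2-fold higher, with a median log2 ratio of 1.02 in high-share and 1.21 in low-share barcodes, and in the heterozygous library 13 of 16 were higher, beside 4709 of all 9851 genes, with medians of 0.20 and -0.11. Cluster 13, a monocyte and macrophage-like cluster led by interferon response genes, held 0.816% of the high-share and 20.5% of the low-share barcodes of the homozygous library, against 0.392% and 9.19% in the wild-type library, and its part in these values was not tested. Oas2, an antiviral oligoadenylate synthetase, had 45.5 CPM in the high-share barcodes of the homozygous library, against 10.5 CPM in those of the wild-type library, and Mx2, an antiviral GTPase, 28.5 against 6.44 CPM. The other genes named as higher were the homeobox gene Hoxa11 with 21.6 against 2.50 CPM, Arc, Penk, Syne3, Ccnb1ip1 and the histone gene H4c6. Penk, the precursor of enkephalins, had log2 ratios of 1.72 in high-share and 1.51 in low-share barcodes. Histones had a median of 1.05 in high-share and 1.01 in low-share barcodes of the homozygous library and 0.26 and 0.24 in those of the heterozygous library.

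Genes lower in the homozygous high-share barcodes included regulators of transcription. Pbx3, a cofactor of Hox proteins, had 176 CPM in the homozygous, against 1228 CPM in the wild-type library, and log2 ratios of -2.81 in high-share and -2.59 in low-share barcodes. Aff3, a nuclear elongation factor, had 17.7 against 128 CPM. Dand5, Elavl2, Zc3h12c, Cgnl1 and Gsto2 were the others named, with log2 ratios from -3.94 to -3.03. All of these were also lower in low-share barcodes. Elavl2 is a leading gene of cluster 4, which held 7 high-share barcodes of the homozygous and 214 of the wild-type library. A cell population of the wild-type library and the genotype cannot be told apart for it. Stem and progenitor markers had a median of -1.06 in high-share and -1.12 in low-share barcodes of the homozygous library. Stem and progenitor-like barcodes were also fewer there, with 1.82% of high-share and 10.9% of low-share barcodes in the homozygous library, against 7.99% and 30.6% in the wild-type library. Fewer cells of that kind and less RNA in each cannot be told apart in these sums.

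In heterozygous high-share barcodes the genes named as higher included genes of neutrophils and of antigen presentation. Mature neutrophil-like barcodes made up 1.70% and dendritic cell-like barcodes 1.92% of the high-share barcodes of that library, against 0.418% and 0.131% in the wild-type library. More cells of a type and more RNA in each cannot be told apart. Retnlg, a resistin-like protein of neutrophils, had 124 CPM, against 5.91 CPM in the wild-type library, and G0s2, an inhibitor of fat breakdown found in neutrophils, 47.8 against 4.99 CPM. The class II chains H2-Eb1 and H2-Ab1 had 76.6 against 4.60 CPM and 74.0 against 8.40 CPM. Slc15a2, a peptide transporter, rested on 185 UMIs in the heterozygous and 3 in the wild-type library, with a log2 ratio of 6.57 (95% interval 5.22 to 9.08). Their low-share barcodes had log2 ratios in the same direction, from 2.50 (H2-Ab1) to 6.34 (Slc15a2). The genes named as lower were Mid1, Rhoj, Ehbp1, Cgnl1 and Elavl2, the last with 0 UMIs in the heterozygous and 100 in the wild-type high-share barcodes. Rhoj, Ehbp1 and Elavl2 are leading genes of cluster 4, of whose 593 barcodes 529 came from the wild-type library, so a cell population of that library and the genotype cannot be told apart here.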

How the data were processed

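Pooled marrow of 2 mice was run for each genotype with a 10x Chromium 3' v3 kit, per the labels' protocols. The deposited matrices hold UMI counts for 33696 genes, made by the authors with Cell Ranger 8.0.1, per the file headers, and with STAR on mm10, per the submitters' processing notes. The annotation release and the use of intron reads are not given in the sources used here. The lowest total was 500 UMIs, so barcodes were filtered before deposit. Libraries were grouped by the genotype characteristic, since the letters in their titles do not spell the genotypes.

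UMIs were summed over barcodes, without mt- genes, for genes with at least 100 UMIs in every library. Log2 ratios used 0.5 prior UMIs and exact conditional 95% intervals, and had no test, since each genotype had 1 library. They were checked on simulated counts drawn independently for each gene. That check does not cover the dependence between UMIs of 1 barcode. A gene was called when it differed at least 2-fold in all 3 libraries. The genes named were the 12 in each direction (8 for homozygous and 5 for heterozygous barcodes against wild type) with the largest difference at the interval bound nearest 0, without mt-, ribosomal protein, haemoglobin, sex-linked, antigen receptor and unnamed genes. A gene that the rule named is not reported here. The barcodes and the 36 gene lists were chosen with earlier results of these data known. Histones, Xist, Cmss1, Filip1l, Gphn and Camk1d were added after their values were seen. So were the rule for scoring cluster names and the comparisons at equal depth.

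Clustering scaled barcodes to 10000 UMIs and used 2000 variable genes, 30 components, 15 neighbours and a resolution of 1.0, with no integration. No doublet caller was used for the values reported. Gene span, type and overlap came from GENCODE M21, in which 97.0% of the genes were found by ID. Python 3.11.15, numpy 2.4.6, scipy 1.17.1, pandas 2.3.3, scanpy 1.11.5, anndata 0.12.19, igraph 0.11.9 and matplotlib 3.10.9 were used.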

Additional observations from a re-analysis of the deposited data

Results flagged for a closer look

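The median log2 ratio of the monocyte and macrophage markers, high-share over low-share barcodes, was -0.38 in the homozygous, 0.30 in the heterozygous and -0.30 in the wild-type library. The heterozygous library thus lay on the other side of 0 from the other libraries, and the difference between libraries was not tested. In the heterozygous library 14.4% of the low-share barcodes were monocyte and macrophage-like, against 34.8% in the homozygous and 27.1% in the wild-type library. Their part in the medians was not tested.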

How the results depend on the processing

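No paired analysis was possible because each genotype had 1 library and no test was run. Leaving out clusters and matching depth were chosen after seeing the data. Depth is the main limit: high-share barcodes held few UMIs, and matched depth left few genes above the UMI minimum. The cause of the changes below was not tested unless named.

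The share of barcodes over the limit in the homozygous, heterozygous and wild-type library was 62.0%, 35.2% and 54.1% at a limit of 5%, 19.6%, 14.0% and 24.7% at 20%, 45.2%, 21.8% and 39.3% among barcodes of at least 1000 UMIs, 11.4%, 8.37% and 15.7% without the 4 low-UMI clusters, and 48.9%, 37.8% and 43.1% without the mature neutrophil-like clusters. With doublets removed it was 27.1% in the heterozygous library.

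Against 1886 genes higher and 460 lower, there were 1165 and 115 at a limit of 5%, 973 and 1109 relative to the median of all genes, 600 and 280 without the low-UMI clusters with the UMI minimum applied anew, 3 and 12 at 1000 to 2000 UMIs, and 554 and 195 at 5000 to 10000. Higher genes numbered 3102 at a minimum of 20 UMIs and 924 at 500. Leaving out 1 library gave 2109 to 2307 higher and 487 to 742 lower, the last without the heterozygous library. Among high-share barcodes, homozygous over wild type had 479 genes higher at a limit of 5%, 102 higher and 89 lower at 20%, 716 and 518 at a minimum of 20 UMIs, 96 and 48 at 500, and 136 and 98 without the low-UMI clusters. Heterozygous over wild type had 250 lower at 5%, 107 higher at 20%, 474 higher and 637 lower at a minimum of 20 UMIs, and 42 and 34 at 500.

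As means over the libraries, the ribosomal protein median (-1.28) was -0.68 at a limit of 5%, -1.66 relative to all genes, 0.20 at 1000 to 2000 UMIs and -0.29 at 5000 to 10000. The nuclear long noncoding RNA median (0.82) was 0.93 at 5%, 0.44 relative to all genes, 0.87 without doublets, 0.67 with equal weight for each barcode, 1.01 without the low-UMI clusters, 0.77 without mature neutrophil-like clusters and 0.65 at 5000 to 10000 UMIs; too few members were measured at 1000 to 2000. The mature neutrophil median (-1.61) was -1.17 at 5%, -1.78 at 20%, -1.99 relative to all genes, -1.67 without doublets, -1.73 with equal weight, -1.64 at a minimum of 500 UMIs, -1.02 without the low-UMI clusters, -0.49 without mature neutrophil-like clusters, -1.10 at 1000 to 2000 UMIs and -1.56 at 5000 to 10000. The histone median (2.30) was 2.04, 1.92, 2.40, 2.03, 2.23, 1.30, 2.13, 0.81 and 1.98 at 5%, relative to all genes, without doublets, with equal weight, at 500 UMIs, without low-UMI clusters, without mature neutrophil-like clusters, at 1000 to 2000 and at 5000 to 10000 UMIs. Leaving out 1 library gave -1.42 to -1.11 for ribosomal proteins, 0.80 to 0.83 for noncoding RNAs, -1.62 to -1.60 for mature neutrophil markers and 2.28 to 2.33 for histones.

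Other medians changed direction. Relative to all genes, apoptosis was -0.16, transcription factors -0.10, heat shock -0.021, long-gene membrane proteins -0.16, small nucleolar RNA hosts -0.0039 and stem markers -0.17. With equal weight long-gene membrane proteins were -0.026, and at 20% stem markers were -0.093. At 1000 to 2000 UMIs apoptosis was -0.032, endoplasmic reticulum 0.25, progenitor markers 0.58, transcription factors -0.013, immediate early genes -0.080, primary granules 0.36, respiratory chain 0.037, long-gene membrane proteins -0.39 and the gene Neat1 -0.23. At 5000 to 10000 UMIs apoptosis was -0.23, endoplasmic reticulum 0.22, progenitor markers 1.01, immediate early genes -0.26 and primary granules 0.64. Of the named genes with enough UMIs, 15 lost their 2-fold difference at 1000 to 2000 UMIs and 2 kept it, beside Neat1. Without mature neutrophil-like clusters 6 lost it and 20 did not change in this respect. Without the low-UMI clusters 4 lost it and 19 did not change. Leaving genes over 1% of UMIs out of the totals changed no direction and moved no value beyond its limit.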
